A study of Rattus norvegicus with 120 samples.

Results

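The cluster of miR-322, miR-503, miR-351, miR-542 and miR-450 is a group of miRNA hairpins that lie close together on the rat X chromosome. It was followed here through 8 of its mature products, miR-322-5p, miR-322-3p, miR-503-5p, miR-351-5p, miR-450a-5p, miR-450b-5p, miR-542-3p and miR-542-5p, out of 666 mature miRNAs listed in at least 1 stage of the study. The 8 rows were picked by name, and they were named because the cluster differed between infancy-onset and adult-onset saline controls. That difference is therefore described with values only. Small RNA was sequenced from whole hippocampi, both hemispheres together, of male Wistar rats, with 1 library per rat. All rats, controls included, had received LiCl. Status epilepticus (SE) was then started with pilocarpine, a muscarinic agonist, given at postnatal day 12 to the infancy-onset and at postnatal day 60 to the adult-onset rats, while saline controls of the same ages got no pilocarpine. SE rats were given paraldehyde to limit mortality. Tissue was taken 24 h (acute stage), 1 week (latent stage) or 3 months (chronic stage) later. Counted from the injection day, infancy-onset rats were thus at postnatal day 13 and 19 in the acute and latent stages, and adult-onset rats at postnatal day 61 and 67. Only rats with sustained motor seizures entered the SE groups, and by video at 3 months clonic seizures were seen after adult-onset SE and not in rats injected at postnatal day 12. In the order adult-onset control, adult-onset SE, infancy-onset control and infancy-onset SE, libraries with counts numbered 9, 9, 9 and 8 in the acute stage, 10 each in the latent stage, and 10, 10, 9 and 10 in the chronic stage.

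A miRNA is cut from a hairpin RNA as a 5p and a 3p strand, and the bases 2 to 8 of a strand, its seed, set most of the messenger RNAs it can pair with. miR-322 is the rodent counterpart of human miR-424, and miR-322-5p and miR-503-5p belong to the extended miR-15/16 family, known for repression of cyclins and other drivers of the cell cycle. The cluster is best known from muscle and other differentiating tissues, where it is linked to exit from the cell cycle, and miR-322 and miR-503 have been followed as miRNAs of growing tissue. miR-351-5p carries the seed of the miR-125 (lin-4) family, a developmental timing family first known from worms. In human cells miR-542-3p represses survivin, an inhibitor of cell death needed in mitosis.

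The mature sequences show which members can share targets and which can share reads. They are given 5′ to 3′ from RefSeq (build GRCr8), with the seed in capitals, and miR-16-5p and miR-125b-5p stand beside them as relatives from other chromosomes.
rno-miR-322-5p: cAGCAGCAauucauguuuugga
rno-miR-503-5p: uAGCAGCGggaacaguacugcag
rno-miR-16-5p: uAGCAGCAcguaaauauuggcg
rno-miR-322-3p: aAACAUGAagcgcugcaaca
rno-miR-351-5p: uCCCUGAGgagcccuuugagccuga
rno-miR-125b-5p: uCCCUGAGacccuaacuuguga
rno-miR-450a-5p: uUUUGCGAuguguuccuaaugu
rno-miR-450b-5p: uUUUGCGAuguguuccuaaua
rno-miR-542-3p: uGUGACAGauugauaacugaaa
rno-miR-542-5p: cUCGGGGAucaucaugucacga
miR-322-5p has the seed of miR-15b-5p, miR-16-5p, miR-195-5p and miR-497-5p, and the seed of miR-503-5p matches it in 6 of 7 letters. miR-351-5p shares its seed with miR-125a-5p and miR-125b-5p, which are counted in the files as well. miR-450a-5p and miR-450b-5p share the seed and all of their first 20 bases and differ only at the 3′ end. Reads were assigned with up to 1 mismatch, so the split of reads between these 2 is uncertain, and their sum is given beside the single values. The remaining seeds, of miR-322-3p, miR-542-3p and miR-542-5p, are shared with no other rat miRNA of the RefSeq table.

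The 6 hairpins lie on the minus strand of the X chromosome within 5309 bases (GRCr8, RefSeq annotation). From the 5′ side they are Mir322 (chrX:137726147-137726241), Mir503 (chrX:137725856-137725926), Mir351 (chrX:137725116-137725196), Mir542 (chrX:137722176-137722254), Mir450b-1 (chrX:137721078-137721146) and Mir450a1 (chrX:137720933-137721023). Mir322 and Mir503 are 220 bases apart and Mir450b-1 and Mir450a1 only 54, whereas 2861 bases separate Mir351 from Mir542. The annotated long noncoding RNA LOC102550366 (chrX:137724960-137729208) overlaps the first 3 hairpins and ends before Mir542, and no protein-coding gene is annotated within the cluster. The cluster of miR-106a and miR-363, a relative of miR-17/92, is the next cluster on this chromosome considered here, 377285 bases away.

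Libraries held from 309975 to 4026890 miRNA reads in the acute stage (median 1113637), 450644 to 8165312 in the latent stage (median 2631112) and 499094 to 28111631 in the chronic stage (median 4418190). Levels are reads per 1e6 miRNA reads (CPM) after TMM scaling within a stage, a scaling that makes the bulk of miRNAs equal between libraries. The 3 stages are separate tables and no test was run across them. The tissue label was borne out by brain miRNAs, as miR-9a-5p alone stood at 103800 CPM or more in every library of the acute stage. In 6 libraries, 2 in each stage, 4 miRNAs of the choroid plexus list (miR-204-5p, miR-211-5p, miR-1298 and miR-448-3p) summed to between 7106 and 23105 CPM, against at most 2832 in the other libraries. These are adult-onset SE replicate 6 and infancy-onset control replicate 2 of the acute stage, adult-onset SE replicates 5 and 6 of the latent stage, and adult-onset control replicate 8 and infancy-onset control replicate 7 of the chronic stage. In the chronic stage 3 infancy-onset libraries, control replicates 2 and 10 and SE replicate 4, also had TMM factors under 0.72, the lowest of all. Adult-onset and infancy-onset libraries of a stage carry separate ranges of library numbers, so that onset age, age at sampling and any step of library preparation that followed these numbers cannot be told apart.

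In the young hippocampus of saline controls the whole cluster stood above the adult level 24 h and 1 week after injection. miR-322-5p lay between 193 and 346 CPM (median 279) in acute-stage adult-onset controls and between 467 and 751 CPM (median 609) in infancy-onset controls. For its other strand, miR-322-3p, the same groups held 44.1 to 110.5 CPM (median 55.0) and 131 to 233 CPM (median 159). miR-503-5p, the close seed relative of miR-322-5p, ran from 18.7 to 40.1 CPM (median 29.9) in adult-onset and from 68.4 to 150.6 CPM (median 109) in infancy-onset controls. None of these 3 miRNAs overlapped between the ages. miR-351-5p, the member with the miR-125 seed, lay between 147 and 184 CPM (median 162) in adult-onset and between 428 and 800.3 CPM (median 579) in infancy-onset controls, a ratio of means of 3.78 and the highest of the cluster. In these controls miR-450a-5p ran from 86.6 to 291 CPM (median 207) at the adult and from 359 to 658 CPM (median 415) at the infant age. Its near copy miR-450b-5p ran from 75.6 to 235 CPM (median 176) and from 237 to 682 CPM (median 303). Both again separated the ages in every rat, and so did their sum, with 162 to 527 CPM against 596 to 1341 CPM. miR-542-3p lay between 33.6 and 152 CPM (median 97.5) in adult-onset and between 189 and 455 CPM (median 291) in infancy-onset controls. miR-542-5p, with 5 to 67 reads in a library the sparsest member, lay between 9.09 and 13.6 CPM (median 10.99) and between 13.3 and 43.5 CPM (median 36.4). Only for this member did 1 infancy-onset control fall among the adult-onset ones. Of the 8 members 7 thus had every infancy-onset control above every adult-onset control, where 15.4% of all 383 tested miRNAs had this, but the members were chosen on this contrast and nothing is read from the count.

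**Figure D1:**
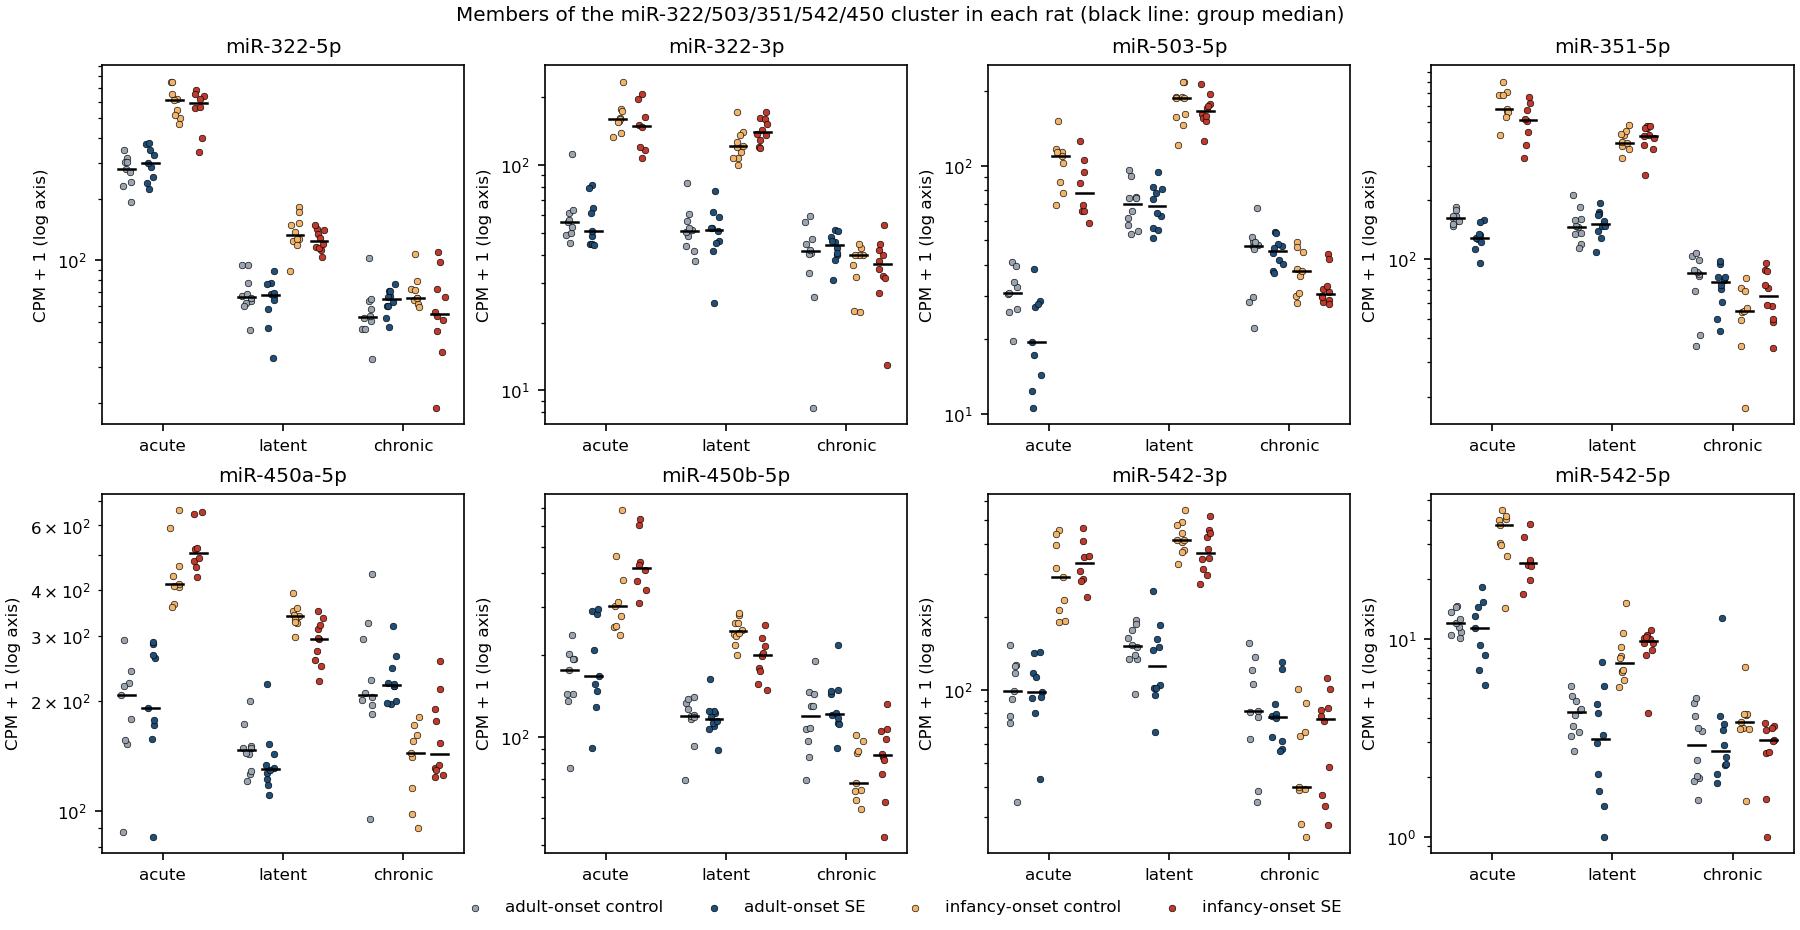
Each dot is 1 rat, the vertical axis is CPM + 1 on a log axis, and dots are coloured by onset age and treatment within the acute, latent and chronic stages, with a black line at the group median. Most infancy-onset rats lie above every adult-onset rat in the acute and latent stages, with overlap for miR-542-5p, miR-322-5p and miR-450b-5p in some groups, from 467 to 751 CPM against 193 to 346 CPM for miR-322-5p in acute-stage controls, and the groups overlap in the chronic stage.

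One week after injection, at postnatal day 19 against 67, the same order held in the controls. miR-351-5p lay between 114 and 212 CPM (median 146) in 10 adult-onset and between 327 and 480.1 CPM (median 391.6) in 10 infancy-onset controls. miR-542-3p went from 94.8 to 192 CPM (median 151) up to 328 to 547 CPM (median 414). miR-503-5p held 52.1 to 94.9 CPM (median 68.8) in adult-onset controls and 119.8 to 217 CPM (median 185) in infancy-onset controls. As ratios of means these members were 2.68, 2.81 and 2.54 times as high in the younger controls. miR-322-5p was the member with the smallest ratio, 1.99, with 44.4 to 94.1 CPM against 88.0 to 182 CPM and 9 of 10 infancy-onset controls above all adult-onset ones. In latent-stage controls miR-450a-5p ran from 119.6 to 199 CPM (median 145) and from 296.6 to 391.9 CPM (median 338), and miR-450b-5p from 67.9 to 139 CPM (median 119) and from 199.6 to 285 CPM (median 244). The values of miR-542-5p rested on 1 to 29 reads, 1.73 to 4.81 CPM against 4.72 to 14.1 CPM. Here 6 members, all but miR-322-5p and miR-542-5p, had every infancy-onset control above every adult-onset one. Among all 406 tested miRNAs 12.6% had this, and nothing is read from this count either. On the log2 scale the members' differences in controls ran from 1.07 to 1.92 in the acute stage (median 1.49, against 0.04 over all tested miRNAs) and from 1.01 to 1.49 in the latent stage (median 1.23, against 0.01).

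The cluster was named for a difference between controls, and the same age difference was tested in the SE rats, which are other animals. Earlier results of these data were known at the choice, and SE rats share the ages and library number ranges of the controls. The calls below are therefore not independent support for that difference. All 8 members were higher in infancy-onset than in adult-onset SE rats in the acute stage, and all 8 again in the latent stage. Over all miRNAs 34.5% of 383 were called higher in infancy-onset SE rats of the acute stage and 32% of 406 in those of the latent stage. The test was the quasi-likelihood F test of edgeR over the 4 groups of a stage, with adjusted p values (Benjamini-Hochberg) over all tested miRNAs and a call at an adjusted p under 0.05. Groups of 8 to 10 rats stood on either side.

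In acute-stage SE rats, miR-351-5p lay between 95.04 and 157 CPM (median 128) in the 9 adult-onset and between 327 and 665 CPM (median 508) in the 8 infancy-onset rats. The groups did not overlap, and the log2 difference was 1.97 (standard error 0.13, adjusted p = 1.63e-15). For miR-503-5p, with 9.59 to 37.3 CPM (median 18.5) against 57.7 to 125.1 CPM (median 76.3), it was also 1.97 (standard error 0.22, adjusted p = 4.95e-10). These 2 had the largest differences of the cluster in this stage. miR-542-3p, with 42.1 to 142 CPM (median 97.3) and 239.8 to 462 CPM (median 331), had a log2 difference of 1.74 (standard error 0.23, adjusted p = 3.16e-08). miR-450a-5p, with 84.1 to 288 CPM (median 190.3) and 433 to 651 CPM (median 502.7), was 1.34 higher (standard error 0.19, adjusted p = 1.77e-07). The least difference of the cluster, 0.88 (standard error 0.14, adjusted p = 1.31e-06), belonged to miR-322-5p, whose groups of 224 to 374 CPM (median 297) and 338 to 680 CPM (median 589) overlapped in 1 infancy-onset rat. Its 3p strand, with 43.2 to 80.3 CPM and 107 to 206 CPM, differed by 1.42 (standard error 0.17). Of the 8 members 6, all but miR-322-5p and miR-542-5p, had every infancy-onset SE rat above every adult-onset one, as did 15.9% of all tested miRNAs.

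In the latent stage miR-542-3p ran from 65.9 to 255 CPM (median 124) in 10 adult-onset and from 272 to 517 CPM (median 364) in 10 infancy-onset SE rats, a log2 difference of 1.48 (standard error 0.16, adjusted p = 4.14e-10). miR-322-3p, which holds fewer reads than miR-322-5p in acute libraries, had 23.5 to 75.9 CPM (median 50.6) against 118 to 171 CPM (median 139), a difference of 1.497 (standard error 0.14, adjusted p = 3.85e-12). Both separated the ages completely. miR-351-5p, with 107 to 193 CPM (median 151) and 267 to 478 CPM (median 424), differed by 1.45 (standard error 0.11, adjusted p = 1.74e-14). For miR-503-5p, with 50.2 to 93.2 CPM (median 68.0) and 124.9 to 212 CPM (median 165), the difference was 1.28 (standard error 0.12, adjusted p = 9.41e-12). The near copies miR-450a-5p and miR-450b-5p, which carry one seed, differed by 1.07 and 0.74 (standard errors 0.10 and 0.11, adjusted p = 1.18e-11 and 3.15e-07), so that miR-450b-5p had the least age difference here and miR-322-5p (0.97, standard error 0.14) the next. miR-542-5p had the highest estimate, 1.64, with the widest 95% interval, 1.04 to 2.24, and 0 to 27 reads per library. No overlap between the ages was seen in 6 members, where 9.61% of all miRNAs had none, and miR-450b-5p and miR-542-5p overlapped. Neither stage lost any of these 16 calls when 1 library was left out, when the 2 libraries rich in choroid plexus miRNAs were left out, or under another scaling, another filter or the DESeq2 test.

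**Figure D2:**
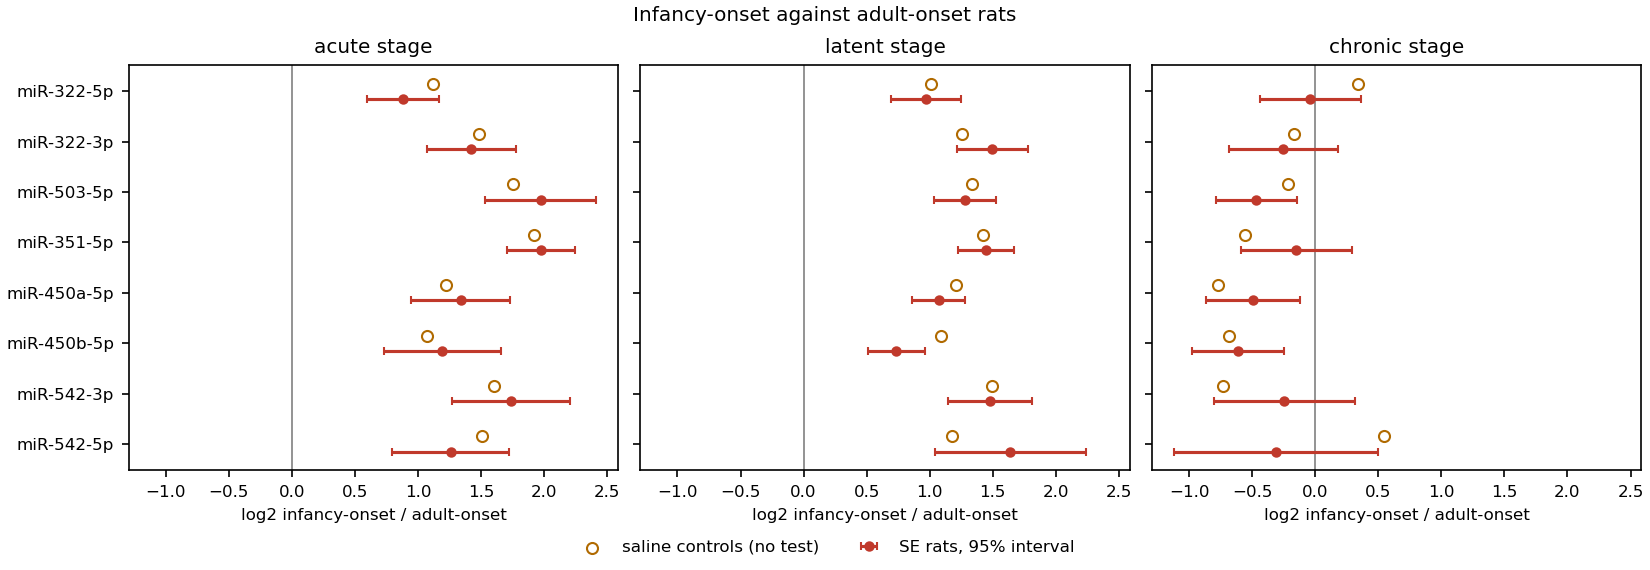
Log2 difference of infancy-onset over adult-onset rats for the 8 members, in saline controls (open circles, a description without test) and in SE rats (filled circles with the 95% interval of the fit), 1 panel per stage. In SE rats all 8 intervals lie above 0 in the acute and latent stages, and in the chronic stage the estimates run from -0.61 to -0.04.

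At 3 months after injection no member was called higher in infancy-onset SE rats, where 37 of 442 miRNAs were called higher. All 8 estimates were below 0, though that of miR-542-5p turned to 0.17 without adult-onset SE replicate 1 and that of miR-322-5p to at most 0.05 when infancy-onset SE replicate 4, 9 or 10 was left out. The 2 members called were lower in the infancy-onset rats, where 5.66% of 442 miRNAs were called lower. No member separated the ages completely, as did 0.0% of all miRNAs in SE rats and 0.226% in controls with the infancy-onset rats above. miR-450b-5p stood at 90.1 to 216 CPM (median 121) in 10 adult-onset and at 41.6 to 131 CPM (median 84.3) in 10 infancy-onset SE rats, with a log2 difference of -0.61 (standard error 0.18, adjusted p = 0.0208). miR-503-5p stood at 36.1 to 53.1 CPM (median 44.5) and 26.8 to 43.2 CPM (median 29.5), with a log2 difference of -0.47 (standard error 0.16, adjusted p = 0.0416). In both miRNAs the groups overlapped. miR-450a-5p had a difference of similar size that did not pass, -0.49 (standard error 0.18, adjusted p = 0.0689), with 194 to 319 CPM (median 219) against 123 to 256 CPM (median 143). The other 5 members had differences from -0.31 to -0.04 and adjusted p values of 0.499 or more. The call of miR-450b-5p ended without adult-onset SE replicate 3, the rat with 216 CPM (-0.50, adjusted p = 0.0616). That of miR-503-5p ended when any 1 of 14 libraries was left out (adjusted p from 0.054 to 0.0774), under DESeq2 and with no filter, so that 0 to 3 members were called when 1 library was left out.

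In chronic-stage controls the members spread over both signs. miR-450a-5p lay between 94.6 and 441 CPM (median 206) in adult-onset and between 88.9 and 179 CPM (median 143) in infancy-onset controls, and miR-542-3p between 33.7 and 155 CPM (median 80.5) and between 23.8 and 99.5 CPM (median 38.8). miR-351-5p held 35.4 to 106 CPM (median 84.6) and 16.6 to 79.6 CPM (median 53.4). These 3 and miR-450b-5p had log2 differences from -0.77 to -0.56. miR-322-5p, with 31.7 to 101.5 CPM (median 51.7) and 57.8 to 106 CPM (median 64.6), and the sparse miR-542-5p, with 0.539 to 4.002 CPM and 0.517 to 6.24 CPM, pointed the other way, at 0.34 and 0.55. Summed over the 8 members, chronic-stage controls held 393 to 1075 CPM at adult onset (median 637) and 348 to 568.2 CPM at infancy onset (median 425). The sums of the earlier stages were 652 to 1203 CPM against 2057 to 3523 CPM in the acute stage and 652 to 989 CPM against 1671 to 2141 CPM in the latent stage. The sums of adult-onset controls thus covered overlapping ranges in the 3 tables, with falling medians of 1048, 740 and 637 CPM. Their miR-322-5p did not overlap between the acute stage (193 to 346 CPM) and the latent stage (44.4 to 94.15 CPM). The chronic-stage sums of infancy-onset controls lay under all of their acute-stage and latent-stage sums. Levels set across separately made tables are a description only.

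**Figure D3:**
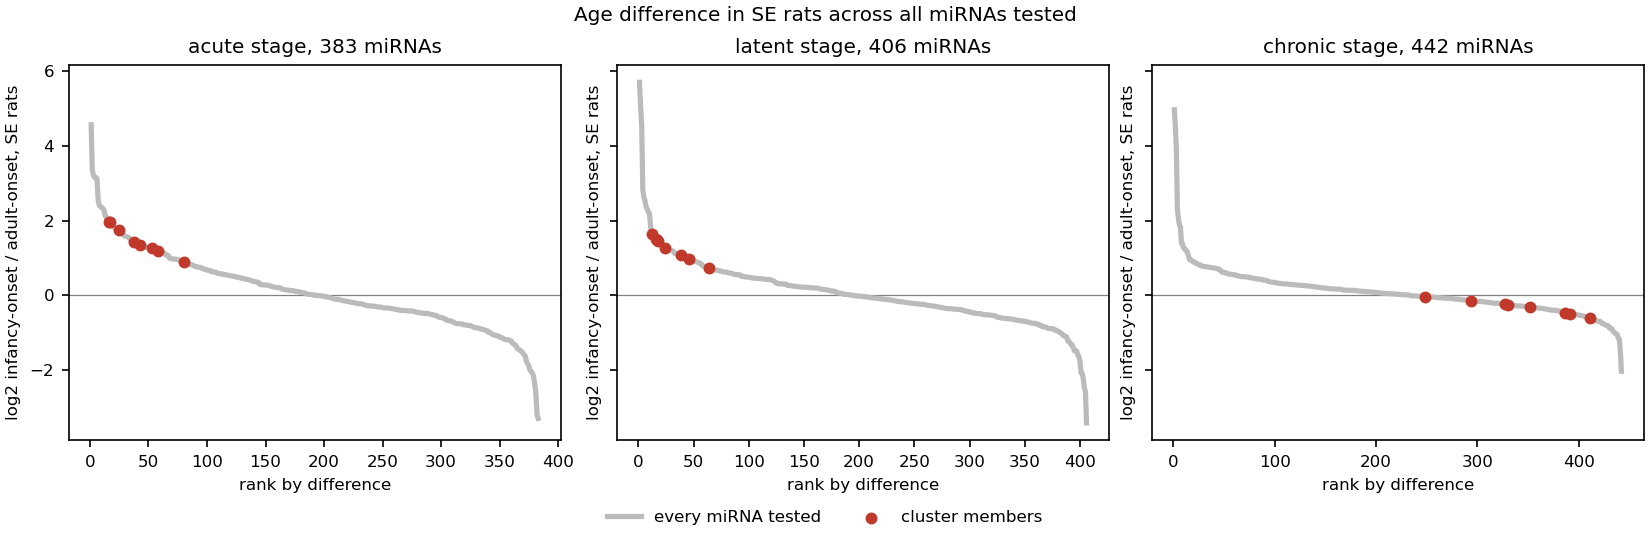
Every tested miRNA of a stage ranked by its log2 difference of infancy-onset over adult-onset SE rats (grey line), with the 8 cluster members as dots. The members hold ranks 16 to 80 of 383 in the acute, 12 to 64 of 406 in the latent and 248 to 411 of 442 in the chronic stage.

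The profile of the hippocampus shifted with age well beyond this cluster. Oligodendrocyte miRNAs (miR-219a-5p, miR-219a-2-3p and miR-338-3p) summed to 4485 to 8046 CPM in adult-onset and to 473 to 1855 CPM in infancy-onset controls of the acute stage, and all 3 were called lower in infancy-onset SE rats (median log2 difference -2.04). The 4 neuronal miRNAs (miR-124-3p, miR-128-3p, miR-138-5p and miR-218a-5p) summed to 73290 to 88920 CPM and 51030 to 65600 CPM in the same controls. All 6 listed miRNAs of the miR-17/92 cluster, taken as a mark of proliferating progenitors, were called higher in infancy-onset SE rats of the acute stage (median 1.31), with sums of 1352 to 1835 CPM and 2982 to 4455 CPM in controls. Of these 3 lists only miR-17/92 lay in the direction of the cluster in the acute stage, while the oligodendrocyte and neuronal lists lay in the other. Outside them, the brain miRNA miR-9a-5p was also called higher in infancy-onset SE rats of the acute stage (log2 difference 0.83). Oligodendrocyte sums overlapped between the ages in latent-stage controls, with 3643 to 11300 CPM and 3901 to 6914 CPM. In latent-stage controls the miR-17/92 list again did not overlap between the ages, with sums of 1016 to 2098 CPM and 2152 to 3481 CPM (median log2 difference 1.26, against 1.23 for the cluster members). In latent-stage SE rats 3 of the 6 were called higher with infancy onset (median 0.29), the adult-onset SE rats having risen over their controls in all 6 (median 0.93), and the cluster members had a median of 1.36. The vessel wall and mesenchyme list (miR-126a, miR-143, miR-145, miR-199a and miR-214 strands) overlapped between the ages, with 16780 to 25540 CPM and 11210 to 33140 CPM in acute-stage controls and 2 members called higher and 1 lower of 7 in SE rats (median -0.15). The erythroid list summed to 330.4 to 746 CPM and 537 to 927 CPM in those controls. Of 8 vessel wall and mesenchyme miRNAs tested in the latent stage, 3 were called higher and 0 lower in infancy-onset SE rats (median 0.14). Over all 383 miRNAs of the acute stage, 132 were called higher and 112 lower in infancy-onset SE rats. The latent stage had 130 called higher and 126 lower of 406. Among SE rats, myeloid miRNAs were lower with infancy onset, with 2 of 3 called in the acute and 3 of 3 in the latent stage. So were choroid plexus miRNAs, with 1 of 3 and 3 of 4 called. The SE libraries rich in choroid plexus miRNAs were all adult-onset, acute replicate 6 (7106 CPM) and latent replicates 5 and 6 (23105 and 11055 CPM). Of 3 muscle miRNAs 1 was called higher and 1 lower in the acute and 1 lower in the latent stage. Myeloid sums overlapped between the ages in latent-stage controls, at 84.9 to 196 and 124 to 252 CPM. So did choroid plexus sums, at 707 to 1141 and 499 to 800 CPM, and in acute-stage controls at 1016 to 2582 and 590 to 12640 CPM. The 12640 CPM belonged to infancy-onset control replicate 2. All 3 tested choroid plexus miRNAs had higher estimates with infancy onset in acute-stage controls (median log2 difference 1.64). Latent adult-onset SE rats had myeloid sums of 165 to 599 CPM, and 3 choroid plexus miRNAs were called higher in them than in controls. Choroid plexus sums were 23105 and 11055 CPM in replicates 5 and 6 of these rats and 570 to 1302 CPM in the others. The part of these cell types in the age difference of the cluster was not tested, and in whole tissue a change in the number of cells of a type cannot be told apart from a change of the miRNA per cell.

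SE gave no called change of the cluster at either age. No member passed in any of the 6 comparisons of SE rats with saline controls of the same onset age and stage by edgeR, where 3.66% of 383 miRNAs were called at adult onset and 4.96% at infancy onset in the acute stage, 7.39% and 0.493% of 406 in the latent stage, and 1.36% and 0.0% of 442 in the chronic stage. At an unadjusted p under 0.05 there were 2 members in acute adult-onset, 1 in acute infancy-onset and 3 in latent infancy-onset rats, where 20.9%, 15.9% and 14.3% of all tested miRNAs had such a p, and 0 in the other comparisons. DESeq2 called 1 member, miR-450b-5p in latent infancy-onset rats, where it called 10 of 406 miRNAs and edgeR 2. limma voom called 1, miR-351-5p in acute adult-onset rats, where it called 16 of 383 miRNAs and edgeR 14. In the chronic infancy-onset comparison, where edgeR and DESeq2 called 0 of 442 miRNAs, 23 had an unadjusted p under 0.05 and limma voom called 5, none of them a member.

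**Figure D4:**
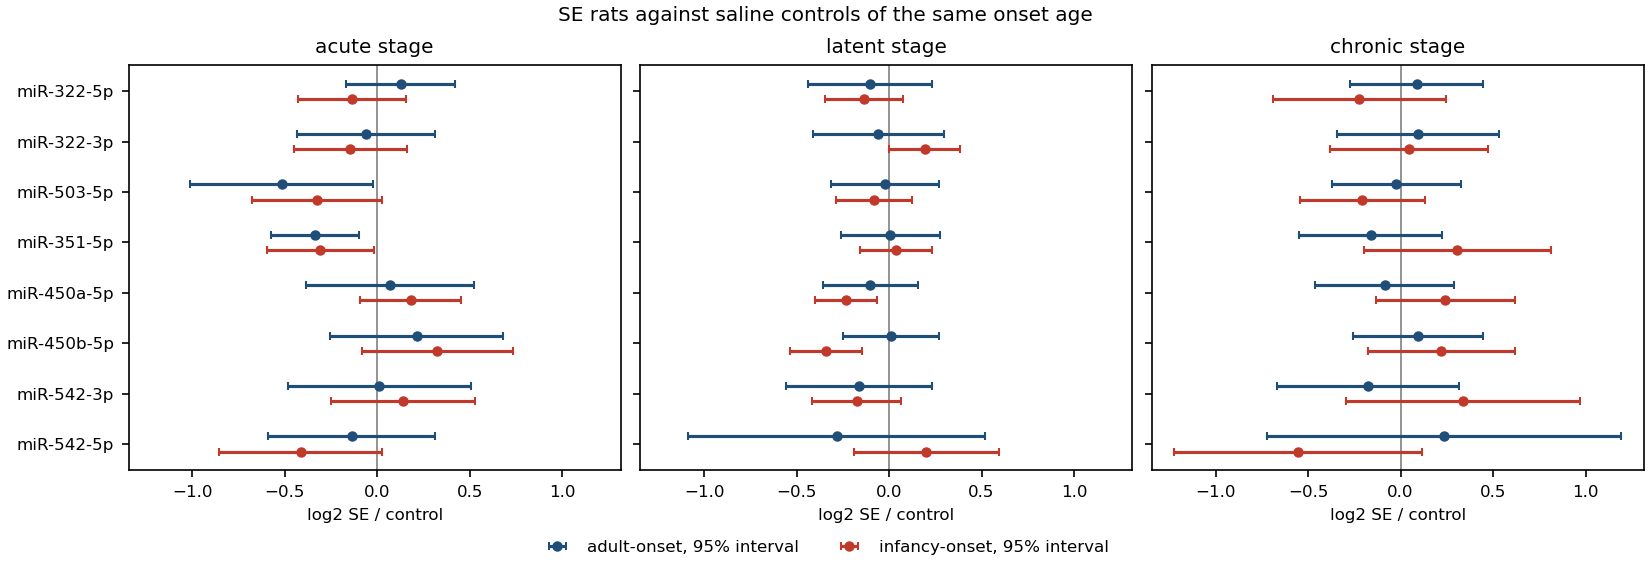
Log2 difference of SE rats over saline controls for the 8 members, with the 95% interval of the 2-group fit, adult-onset in blue and infancy-onset in red, 1 panel per stage. In the acute stage estimates run from -0.52 to 0.21 at adult onset and from -0.42 to 0.32 at infancy onset, and no member passed the adjusted threshold.

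The members nearest to a change 24 h after SE were miR-351-5p and miR-503-5p. In adult-onset rats miR-351-5p stood at 147 to 184 CPM (median 162) in controls and 95.04 to 157 CPM (median 128) after SE, with all 9 SE rats under the control median and 7 under every control. Its log2 difference was -0.34 (standard error 0.11, p = 0.00762, adjusted p = 0.107). It passed under limma voom with sample weights (-0.43, adjusted p = 0.0162) and without adult-onset SE replicate 1 (adjusted p = 0.0435). miR-503-5p had 8 of 9 SE rats below the control median and 5 below every control, with a log2 difference of -0.52 (standard error 0.24, p = 0.0415, adjusted p = 0.221). Libraries of these adult-onset SE rats were shallower, with a median total of 562003 reads against 1838745 in controls. Read counts of miR-503-5p ran from 6 to 50 after SE and from 15 to 133 in controls. In infancy-onset rats the same 2 miRNAs had estimates of the same sign, -0.31 for miR-351-5p (standard error 0.14, adjusted p = 0.295, 6 of 8 SE rats below the control median) and -0.33 for miR-503-5p (standard error 0.17, adjusted p = 0.363, 7 of 8). miR-450a-5p and miR-450b-5p lay above the control median in all 8 infancy-onset SE rats, yet at 0.18 and 0.32 (standard errors 0.13 and 0.20) neither passed. In adult-onset rats the 95% intervals of miR-322-5p (-0.17 to 0.42), miR-450a-5p (-0.39 to 0.52) and miR-542-3p (-0.48 to 0.50) left out a change of 2-fold in either direction.

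One week after SE in infancy, miR-450b-5p and miR-450a-5p were the members nearest to a change. miR-450b-5p lay between 199.6 and 285 CPM (median 244) in controls and between 148 and 257 CPM (median 198) after SE, with 9 of 10 SE rats below the control median and 5 below every control. The log2 difference was -0.34 (standard error 0.09, p = 0.00139, adjusted p = 0.0565). It passed with DESeq2 size factors (adjusted p = 0.048), under DESeq2 (adjusted p = 0.0255) and without infancy-onset SE replicate 3 (adjusted p = 0.0495). miR-450a-5p had 296.6 to 391.9 CPM in controls and 225 to 349 CPM after SE (median 294), 6 of 10 SE rats below every control, and a log2 difference of -0.23 (standard error 0.08, p = 0.00796, adjusted p = 0.15). The pair summed to 532 to 638 CPM (median 595) and 374 to 592 CPM (median 484). miR-322-3p went the other way, with 99.2 to 171 CPM (median 119.9) and 118 to 171 CPM (median 139), 8 of 10 SE rats over the control median, and a difference of 0.19 (standard error 0.09, p = 0.0476, adjusted p = 0.349), while miR-322-5p stood at -0.14. Adult-onset rats of the latent stage had member differences from -0.28 to 0.01 with adjusted p values of 0.701 or more. Beside the rise of the miR-17/92 list in that comparison, the cluster members had a median of -0.08.

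At 3 months the cluster showed no called difference after SE. In adult-onset rats estimates ran from -0.18 for miR-542-3p to 0.23 for miR-542-5p, which turned to -0.22 without adult-onset SE replicate 1 (11.73 CPM, others 0.877 to 3.10). The 5p strand of miR-322 had 31.7 to 101.5 CPM (median 51.7) in controls and 45.9 to 75.9 CPM (median 63.4) after SE. In infancy-onset rats they ran from -0.55 for miR-542-5p (standard error 0.32, adjusted p = 0.847, 10 of 10 SE rats below the control median of 2.79 CPM) to 0.34 for miR-542-3p (standard error 0.30, adjusted p = 0.879). Across both ages the 95% intervals of single members reached from -1.22 to 1.19, and both ends are those of miR-542-5p.

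No member was called for a difference in the SE change between the onset ages (interaction test, adult-onset change minus infancy-onset change), with 0 calls by edgeR and by DESeq2 in each stage, where 0.261%, 3.2% and 0.905% of all miRNAs were called in the acute, latent and chronic stages. Just 1 member had an unadjusted p under 0.05, miR-450b-5p of the latent stage at 0.35 (standard error 0.16, p = 0.029, adjusted p = 0.283). limma voom with sample weights called 1 member, miR-542-3p of the chronic stage, which edgeR gave as -0.48 (standard error 0.40, adjusted p = 0.804). In that comparison voom called 85 of 442 miRNAs, against 4 by edgeR and 1 by DESeq2. The 95% intervals of the interaction ran over the members from -0.80 to 0.87 in the acute, from -1.31 to 0.67 in the latent and from -1.29 to 2.00 in the chronic stage.

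The strands of 1 hairpin were not counted in one fixed proportion. Ratios between different miRNAs hold the bias of adapter ligation and can be compared between libraries made alike only. miR-322-5p had 2.88 to 7.09 reads for each read of miR-322-3p in acute adult-onset controls (median 4.85) and 2.91 to 4.67 in infancy-onset controls (median 3.70). In the latent stage these values were 0.805 to 2.33 (median 1.27) and 0.828 to 1.27 (median 1.13), so the 5p strand was in excess of the 3p strand in every acute control and in some latent ones. miR-322-5p made up 22.5 to 30.5% of the reads of the 8 members in acute and 5.85 to 12.6% in latent adult-onset controls. For miR-542 the 3p strand was the abundant one, with 3.06 to 11.3 reads per miR-542-5p read in acute and 27.5 to 111 in latent adult-onset controls. miR-450a-5p and miR-450b-5p kept closer to each other, with median ratios from 1.164 to 1.40 in the controls of these 2 stages and of 2.12 and 1.83 in the chronic stage. Since stages were processed as separate tables, a change of a ratio between them was not tested.

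Against its seed relatives the cluster was a small part of the pool, and a larger one in young tissue. miR-322-5p gave 2.61 to 3.37% of the reads of miR-322-5p and the 5 miR-15/16 family members together (miR-15a-5p, miR-15b-5p, miR-16-5p, miR-195-5p and miR-497-5p) in acute adult-onset controls and 5.25 to 9.30% in infancy-onset controls, and 1.19 to 1.90% and 2.93 to 4.96% in the latent stage. The relatives did not follow it as a group. In acute-stage SE rats miR-15b-5p was higher with infancy onset (1.07, standard error 0.13, adjusted p = 3.56e-09), miR-16-5p and miR-195-5p were lower (-0.41 and -0.42, adjusted p = 0.0463 and 0.0360), and miR-15a-5p (-0.22) and miR-497-5p (0.20) did not pass. miR-351-5p gave 0.321 to 0.485% of the reads of its seed, which it shares with miR-125a-5p and miR-125b-5p, in acute adult-onset and 1.04 to 2.09% in acute infancy-onset controls. miR-125a-5p was lower in infancy-onset SE rats (-0.76, standard error 0.14, adjusted p = 2.14e-05) and miR-125b-5p higher (0.35, standard error 0.12, adjusted p = 0.0103).

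The other strands of the locus were not among the chosen members. miR-450a-3p and miR-450b-3p passed the minimum of reads. In acute-stage SE rats miR-450a-3p ran from 2.24 to 17.6 CPM (median 6.18) at adult and from 8.44 to 32.2 CPM (median 17.5) at infancy onset, a log2 difference of 1.43 (standard error 0.33, adjusted p = 0.000241), and miR-450b-3p from 5.17 to 16.3 CPM (median 6.71) and from 13.5 to 30.8 CPM (median 17), a difference of 1.30 (standard error 0.26, adjusted p = 5.22e-05). In the latent stage they differed by 1.17 and 0.85 (adjusted p = 1.31e-05 and 0.000140), and in the chronic stage by 0.22 and 0.29, which did not pass. Both strands of the miR-450 hairpins thus stood higher in the younger SE rats in the first 2 stages. miR-503-3p and miR-351-3p stayed under the minimum of reads and had medians of at most 9.81 CPM in any group. Of the cluster of miR-106a and miR-363 farther along the chromosome only miR-363-3p passed the minimum, in the latent stage, with 0.722 to 11.7 CPM (median 5.40) in adult-onset and 7.17 to 19.3 CPM (median 12.5) in infancy-onset SE rats (1.09, standard error 0.26, adjusted p = 0.000311).

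Between rats of the same group the members varied together in part. The correlation of log2 CPM after removal of group means had a median of 0.313 over the 28 pairs of members in 35 acute libraries, 0.397 in 40 latent and 0.152 in 39 chronic libraries, where the medians over all pairs of tested miRNAs were 0.006, 0.007 and 0.023. Points of a correlation are libraries, which share their depth and composition, and reads that fit both near copies add to the correlation of miR-450a-5p with miR-450b-5p. The closest set was miR-450a-5p, miR-450b-5p and miR-542-3p, the products of the 3 hairpins at the 3′ side of the locus. In the acute stage its 3 pairs had r of 0.903, 0.901 and 0.880, in the latent stage 0.620, 0.498 and 0.655, and in the chronic stage 0.775, 0.731 and 0.603. miR-322-5p and miR-322-3p, the strands of 1 hairpin, had r of 0.219, 0.504 and 0.139, and miR-322-5p with its neighbour miR-503-5p 0.324, 0.466 and 0.141. miR-351-5p stood apart from miR-450a-5p and miR-542-3p in the acute stage (r of 0.033 and -0.013). With the logarithm of the library total the members had r from -0.34 to 0.28 in the acute, -0.19 to 0.22 in the latent and -0.09 to 0.42 in the chronic stage.

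**Figure D5:**
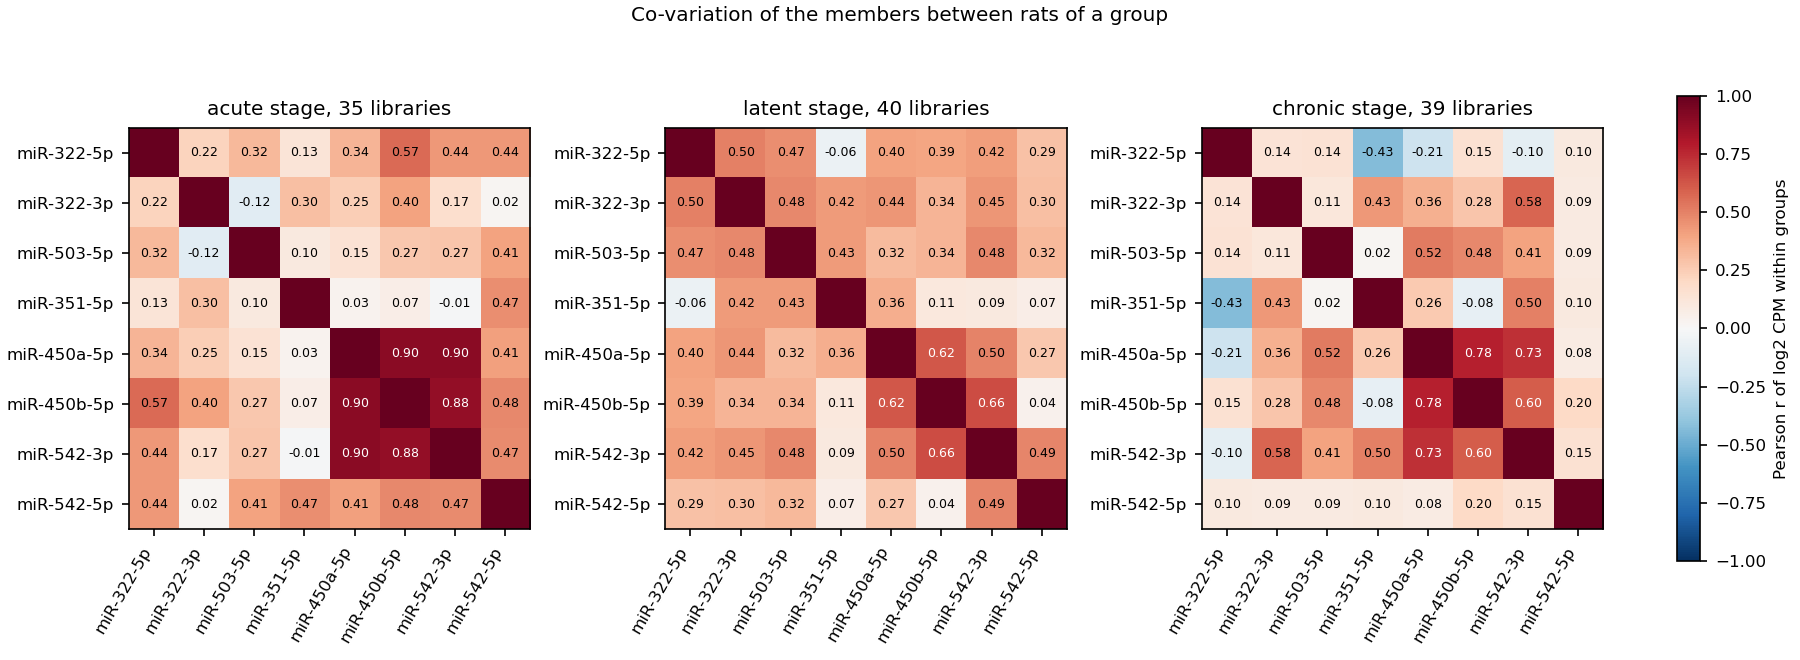
Pearson r of log2 CPM between members over the libraries of a stage, after removal of the 4 group means, from -1 (blue) to 1 (red). miR-450a-5p, miR-450b-5p and miR-542-3p form the block of highest values, 0.880 to 0.903 in the acute stage.

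Over the 12 group means of the study, 5 miRNAs outside the cluster followed its summed level most closely among 379 compared, by Pearson correlation of mean log2 CPM. They were miR-331-3p (r = 0.986), miR-673-5p (0.98), miR-181c-5p (0.976), miR-181c-3p (0.973) and miR-199a-5p (0.97). The members themselves ranged from 0.672 for miR-503-5p and 0.822 for miR-322-5p to 0.982 for miR-322-3p. The 12 points fall into groups by stage and age, and the value says only that the same groups were high. miR-181c-5p had means of 716 and 1671 CPM in adult-onset and infancy-onset controls of the acute stage, 424 and 896 CPM in the latent and 287 and 289 CPM in the chronic stage. miR-199a-5p, on the vessel wall and mesenchyme list above, had 59.4 and 143, 39.7 and 84.9, and 21.8 and 19.5 CPM in the same order.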

How the data were processed

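The authors trimmed adapters, kept reads of 16 to 28 bases with a Phred score of at least 10 over 85% of their length, and assigned them to miRBase (release 22) with seqBuster, allowing 1 mismatch. The deposited counts are raw reads per mature miRNA and library. The deposited normalised reads are a signal, equal in each library to the raw counts over a single constant, and only the counts were used. The labels name DESeq2 1.16.1. Of 120 labelled libraries 114 had counts, and the 6 others, under 300000 miRNA reads per the labels, were not used. Each stage was a separate table. Counts of miRNAs with more than 500 reads summed over a stage were tested with edgeR 4.0.16 in R 4.3.3 (TMM, quasi-likelihood F test, Benjamini-Hochberg over all tested miRNAs). SE was tested in fits of 2 groups. Age in SE rats and the interaction were tested in fits of 4 groups. The standard error is the log2 difference divided by the square root of F. log2 CPM had a prior count of 2, and levels and correlations were computed in Python 3.11.15 with pandas 2.3.3. DESeq2 1.42.0, limma 3.58.1 (voom), other filters and each library left out were alternatives. The code was tested on simulated counts. The members, the lists and the named miRNAs (the 8 members, the other products of the locus, seed relatives, a neighbouring cluster, marker lists and the 5 miRNAs most alike in pattern) were chosen with earlier results of these data known. Labels give no cultures or litters beyond 1 rat per library. The PCR reads have no molecular identifiers counted here.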

Additional observations from a re-analysis of the deposited data

Results flagged for a closer look

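A single rat stood apart from the rest of its group by Dixon's test in 14 of 108 combinations of member (or summed members), stage and group. About 5.4 would be flagged by chance if the values were normal and the combinations independent. Values were CPM without logarithm, and members vary together and enter the sum, so nothing is read from the excess. In the acute stage these were miR-322-3p in adult-onset control replicate 1 (110.5 CPM, others 44.1 to 62.4) and 2 values of infancy-onset control replicate 2, miR-322-3p (233.3 CPM, others 131 to 176) and miR-450b-5p (682.1 CPM, others 237 to 462). That library has 309975 reads, the fewest of the stage, and is one of the 2 rich in choroid plexus miRNAs. Without the 2 such libraries the age difference of miR-450b-5p in acute-stage controls was 0.90 in place of 1.07 on the log2 scale.

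In the latent stage adult-onset control replicate 8 was high in miR-322-3p (82.13 CPM, others 36.6 to 59.3) and in the sum of the 8 members (989.5 CPM, others 652 to 825). Adult-onset SE replicate 4 was high in both near copies, miR-450a-5p (221.3 CPM, others 110.0 to 152) and miR-450b-5p (162.2 CPM, others 88.3 to 124). The sparse miR-542-5p was high in infancy-onset control replicate 1 (14.09 CPM, others 4.72 to 9.72) and low in infancy-onset SE replicate 2 (3.245 CPM, others 7.33 to 10.1).

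In the chronic stage miR-322-5p was high in adult-onset control replicate 2 (101.5 CPM, others 31.7 to 63.4) and in infancy-onset control replicate 1 (106.3 CPM, others 57.8 to 78.1). miR-450b-5p was high in adult-onset SE replicate 3 (216.2 CPM, others 90.1 to 148), the library that carries its call. miR-542-5p was high in adult-onset SE replicate 1 (11.73 CPM, others 0.877 to 3.10), without which its SE difference turned from 0.23 to -0.22 on the log2 scale, and in infancy-onset control replicate 2 (6.24 CPM, others 0.517 to 3.19), the latter a library with 1 of the lowest TMM factors.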

How the results depend on the processing

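All 8 members stayed called for age in SE rats of the acute and latent stages under each alternative run for them (other scalings and filters, DESeq2, fits of 2 groups and left-out libraries, not voom). In the chronic stage 2 members were called, and 1 was called with DESeq2 size factors, under the DESeq2 Wald test, with no filter, with filterByExpr, and without the 3 libraries of lowest TMM factor, an alternative chosen after seeing the data, as was leaving out the libraries rich in choroid plexus miRNAs, which changed no call. Leaving out 1 library gave 0 to 3 called there, 0 to 1 for SE in acute adult-onset and latent infancy-onset rats, and a median age difference in controls of 1.4621 to 1.5539, 1.1855 to 1.3071 and -0.4542 to -0.31319 in the acute, latent and chronic stages. For SE, limma voom gave 1 call in acute adult-onset rats, with 16 of 383 over all miRNAs. DESeq2 size factors and DESeq2 each gave 1 in latent infancy-onset rats, with 10 of 406 over all by DESeq2. For the chronic interaction voom gave 1, with 85 of 442 over all. miR-450a-5p was called for age in chronic SE rats in a fit of these 2 groups alone and when any 1 of 4 libraries was left out. Of 70 member changes with an unadjusted p of 0.05 or more, 24 changed sign under some alternative. No paired analysis was possible because each library is a different rat. The labels number the libraries of a stage from 1 to 40 and name no pairs. The cause of these changes was not tested. Depth limits miR-542-5p most, with 0 to 72 reads per library.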
